A study of Mus musculus with 12 samples.

Results

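The response of LG/J ear tissue to an ear punch was described from 6 of the 12 arrays of the series. They are the 3 arrays labelled as LG/J normal ear, numbered replicates 1, 3 and 4, and the 3 labelled as LG/J tissue next to the punch at day 7, numbered replicates 1, 2 and 3. LG/J is an inbred mouse strain known for closing ear holes well, and the other 6 arrays hold the same 2 conditions, 3 arrays each, in SM/J, an inbred strain that closes them poorly. The punch is the sole treatment the labels name, and no transgene or drug is named for any group. The labels give neither the age nor the sex of the mice and do not say whether each array came from its own animal, so p-values measure the spread between these samples, which may be technical. The day 7 samples were the rim of a hole and the uninjured samples were normal ear tissue, so a change in which tissues were sampled and a change within a tissue cannot be told apart.

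A mouse ear is skin on both sides of a plate of elastic cartilage, with thin muscle, fat, vessels and nerves between. After a punch, keratinocytes at the rim switch to a set of keratins and envelope proteins that intact skin uses little, and migrate over the defect. Neutrophils enter first and macrophages follow, while fibroblasts lay down a temporary matrix rich in tenascins and fibronectin and some become contractile myofibroblasts. In strains that close ear holes, new tissue with cartilage and hair follicles can form in place of a scar.

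Each array gave a signal for 45281 probes of an Illumina bead array, on which each probe is a set of beads carrying 1 sequence. Median signal ran from 95.9 to 118 intensity units. Between 52.4% and 54.6% of probes passed a background limit that was estimated on each array from its dim probes. Values are log2 intensities after background correction and quantile normalization, a change is the day 7 mean minus the uninjured mean on that scale with its standard error, and n was 3 arrays in each group. Adjusted p-values came from limma over all 24690 features, a feature being 1 probe for each of 14218 named genes or an unnamed probe, and a gene was called at an adjusted p under 0.05. "Rose" and "fell" are used for called genes. Where only some arrays of a group passed the background limit, the measured change is given with their number, and it rests in part on signals below that limit. Uninjured values are listed in the order of replicates 1, 3 and 4, and day 7 values in the order of replicates 1, 2 and 3.

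Uninjured replicate 4 stood apart from the other LG/J arrays. Its root mean square distance from the other 2 uninjured arrays was 0.528, against 0.341 and 0.309 for replicates 1 and 3 and 0.214 to 0.278 among the day 7 arrays. On it, 5.97% of features lay over 1 log2 unit from the mean of the other 2 uninjured arrays, against 0.709% to 1.24% on replicates 1 and 3. The first principal component of the 6 arrays, with 57.1% of their variance, placed it at -67.5, replicates 1 and 3 at -15.6 and -16.1, and the day 7 arrays between 30.5 and 34.5. Counts and list medians are therefore given with and without it. Single genes whose call changed without it are named beside their values, as are called genes whose change moved by more than 1.5 times. For genes called in neither fit, such moves in size are not given throughout. The 13 ear markers with a named probe (Krt5 and Krt14 of keratinocytes, Col1a1, Dcn and Pdgfra of fibroblasts, Acan and Col2a1 of cartilage, Acta1 and Ckm of muscle, Adipoq and Plin1 of fat, Pecam1 and Cdh5 of vessels) were above background on all 6 arrays. Apoa1, a liver and gut gene used as an outside marker, was above background on 2 of 6.

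At day 7, 2566 of 24690 features were called (10.4%), 1343 of them higher (5.44% of all features) and 1223 lower (4.95%). By 2-fold or more, 528 features rose and 186 fell, and with arrays scaled to a common median in place of quantile normalization these were 410 and 406. Without uninjured replicate 4, 2704 features were called, 1286 higher (5.21%) and 1418 lower (5.74%). Both fits called 2043 features, 1092 up and 951 down, 523 were called only with that array and 661 only without it, and none of the 2566 changed direction. The change of 182 called features moved by more than 1.5 times without it. The count fell to 1412 without day 7 replicate 1 and to 1593 without day 7 replicate 3. The rises numbered 849 without day 7 replicate 1, and the falls 563, 692 and 694 without day 7 replicates 1, 2 and 3. With median scaling 797 features were higher and 1852 lower, a share of 30.1% higher against 52.3% here.

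**Figure D1:**
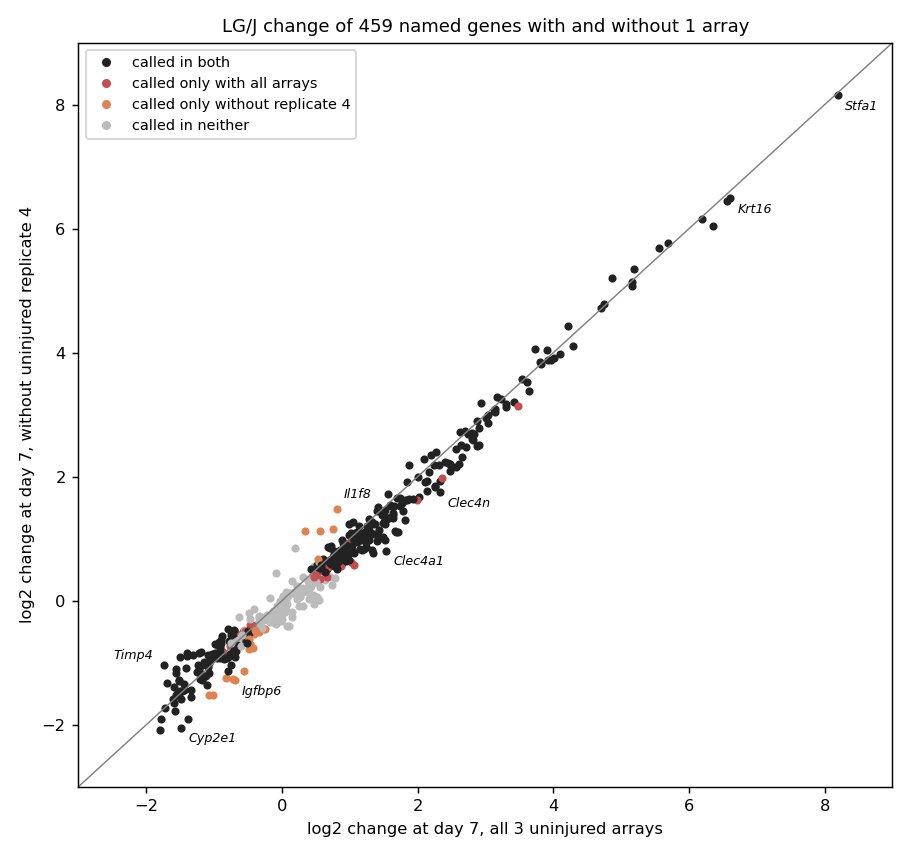
Log2 change at day 7 for the genes named by rule, with all 3 uninjured arrays (horizontal axis) and without uninjured replicate 4 (vertical axis), each point 1 gene, coloured by the fits that called it, with a line of equality. Most points lie near the line, Timp4 and Clec4n moved towards 0 without that array (to -1.03 and 1.75), and Il1f8 and Igfbp6 were called only without it.

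The epidermal wound program held the largest rises. Of the keratins 6a, 6b, 16 and 17, the set made at wound edges, 3 of 4 rose, with a median change of 4.64 (3 with 1 array left out, and 3 with a median of 4.87 without uninjured replicate 4). Krt16 read 7.91, 8.72 and 7.91 on the uninjured arrays and 14.97, 14.74 and 14.65 at day 7 (change 6.61 ± 0.23, adjusted p = 7.23e-10). Krt6a, which pairs with it in filaments, read 5.76, 5.40 and 6.56 on the uninjured arrays and 9.89, 9.46 and 9.56 at day 7 (above background on 1 of the 3 uninjured arrays) and rose by 3.73 ± 0.29. For both, every day 7 array lay well above every uninjured array. Krt17 was already high, at 14.49, 14.30 and 13.95 on the uninjured arrays and 14.23, 14.11 and 14.14 at day 7, and its groups overlapped (change -0.09 ± 0.14, adjusted p = 0.759). The basal layer keratins Krt5 and Krt14, which keep the dividing layer together, changed by 0.22 ± 0.16 and 0.01 ± 0.12 and were not called. In these bulk samples, fewer cells of a type and less RNA per cell cannot be told apart.

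Small proline-rich proteins, which are cross-linked into the cornified envelope, moved together: 10 of 12 rose, with a median change of 3.18 (8 to 10 with 1 array left out, and 10 with a median of 3.19 without uninjured replicate 4). Sprr1b read 7.53, 8.36 and 8.12 on the uninjured arrays and 14, 13.62 and 13.45 at day 7 (5.69 ± 0.29, adjusted p = 3.55e-08). Sprr2d read 7.97, 8.16 and 7.76 on the uninjured arrays and 12.32, 11.84 and 11.75 at day 7 (4.01 ± 0.18, adjusted p = 7.74e-09). Sprr2h read 6.04, 6.21 and 5.86 on the uninjured arrays and 10.25, 9.07 and 9.65 at day 7 (3.62 ± 0.26, adjusted p = 1.12e-06). On Sprr2k all 3 uninjured arrays were below the background limit, at 4.87, 4.45 and 5.31 on the uninjured arrays and 9.78, 8.79 and 8.72 at day 7, so the rise was at least 9.91-fold (adjusted p = 4.11e-07). Such a bound sets the day 7 mean against the dimmest signal above background, or the probe's own where that is higher, averaged over the uninjured arrays. In each of these genes the groups were far apart, but the Sprr2 genes are close in sequence, so their probes may report one another. Sprr1a and Sprr4 changed by 0.35 ± 0.14 and 0.31 ± 0.15 and were not called.

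The promoters of the proline-rich genes are shown because the genes moved together and most share a letter string. The string TGANTCA, the form bound by AP-1 factors and its own reverse complement, was found in the 250 bases before the start of 8 of 10 windows of this family (80%), against 6.75% of all 32851 windows of the RefSeq table (GRCm38.p6). It was in 7 of 8 windows of the members that rose and in 1 of 2 of those not called. It was 1 of 14 strings searched and was shown after its shares were seen, and a match is a run of letters and not a bound site. The Sprr2 windows printed below also share longer runs of letters near the string, so the windows of this family are not independent matches. Below are 80 bases 5′ to 3′ on the gene's strand from RefSeq, with the string in capitals.
Sprr1b (chr3:92438841-92438920, minus strand, string 111 bases before the start): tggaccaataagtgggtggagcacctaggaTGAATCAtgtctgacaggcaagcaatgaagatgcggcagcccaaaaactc
Sprr2d (chr3:92338917-92338996, plus strand, string 193 bases before the start): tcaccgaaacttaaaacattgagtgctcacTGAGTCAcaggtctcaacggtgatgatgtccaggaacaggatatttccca
Sprr2h (chr3:92385457-92385536, plus strand, string 198 bases before the start): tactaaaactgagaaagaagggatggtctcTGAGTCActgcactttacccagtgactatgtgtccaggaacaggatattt
Sprr2k (chr3:92432356-92432435, plus strand, strings 196 and 182 bases before the start): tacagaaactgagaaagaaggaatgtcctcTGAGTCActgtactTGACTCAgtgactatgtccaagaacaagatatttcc

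The stefin A family, small inhibitors of cysteine proteases, gave the widest changes of all named genes: 8 of 11 rose, with a median change of 2.17 (8 with 1 array left out, and 8 with a median of 2.07 without uninjured replicate 4). Stfa1 read 6.75, 7.81 and 7.18 on the uninjured arrays and 15.45, 15.46 and 15.40 at day 7 (8.19 ± 0.47, adjusted p = 1.10e-07), and its second probe changed by 7.96. Cstdc5 read 7.32, 7.72 and 7.12 on the uninjured arrays and 13.95, 13.78 and 14.12 at day 7 (6.56 ± 0.28), and Stfa2 rose by 6.35 ± 0.23. Csta3 was below background on all 3 uninjured arrays, at 5.32, 5.60 and 5.31 on the uninjured arrays and 11.84, 11.49 and 11.49 at day 7, so its rise was at least 56.4-fold (adjusted p = 1.97e-07). Cstdc6 and Stfa2l1, also below background before injury, rose at least 10.8-fold and at least 3.0-fold. In each of these members the day 7 arrays lay close together and far above the uninjured ones. Cstb and Csta1 changed by 0.19 ± 0.11 and -0.14 ± 0.19 and were not called. These genes are near-identical copies, so the split between members is uncertain.

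Among the late cornified envelope genes 8 of 18 rose, with a median change of 0.44 (6 to 8 with 1 array left out, and 6 with a median of 0.31 without uninjured replicate 4). The rises over 1 log2 unit were those of the 5 tested Lce3 genes, which skin induces after barrier damage. Lce1e, Lce1f and Lce6a rose by less, and the calls of Lce1e and Lce1f ended without uninjured replicate 4. Lce3f read 7.83, 7.71 and 7.46 on the uninjured arrays and 13.24, 12.77 and 12.47 at day 7 (5.16 ± 0.18, adjusted p = 7.23e-10), Lce3e rose by 4.75 ± 0.17, and Lce3c rose by 3.01 ± 0.20. Lce3b rose by 3.30 ± 0.22 on its brightest probe and by 5.96 and 5.75 on the others. The Lce1 genes of resting skin included Lce1c at -0.03 and Lce1m at -0.22, which were not called.

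Among the suprabasal and cornified layer genes 5 of 34 rose and 1 fell, with a median change of 0.06 (5 to 6 rose and 0 to 4 fell with 1 array left out, and 5 and 4 with a median of 0.13 without uninjured replicate 4). The share of this list called was 17.6%, against 10.4% of all features. Over all features 5.44% rose and 4.95% fell. Rptn, a filaggrin-like envelope protein, read 9.94, 10.01 and 9.91 on the uninjured arrays and 14.01, 13.75 and 13.58 at day 7 (3.83 ± 0.16, adjusted p = 4.03e-09). Krt1, a keratin of the spinous layer, read 9.99, 10.32 and 10.46 on the uninjured arrays and 13.56, 13.55 and 13.17 at day 7 (3.17 ± 0.20, adjusted p = 2.76e-07). Klk13, a skin serine protease, rose by 3.04 ± 0.18, and the proteases Casp14 and Klk8 rose by 1.27 ± 0.17 and 1.16 ± 0.17. Dmkn and Calm4, secreted and calcium-binding proteins of the outer layers, changed by -0.07 and 0.10 and were not called. Flg2, another filaggrin relative, fell by 1.49 ± 0.35, and its second probe changed by 0.15. Uninjured replicate 4 was highest for Flg2 and read 13.35 where replicates 1 and 3 read 11.59 and 11.52. With 1 array left out, the call ended for Flg2 without day 7 replicate 1 (highest adjusted p = 0.0664). Its size depended on single arrays, and the change was -0.90 for Flg2 without uninjured replicate 4.

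Basal keratinocyte genes that were called fell: 4 of 14 fell, with a median change of -0.29 (3 to 6 with 1 array left out, and 6 with a median of -0.27 without uninjured replicate 4). Krt15, a keratin of resting basal cells and the follicle bulge, read 14.46, 14.52 and 14.52 on the uninjured arrays and 12.95, 13.29 and 12.92 at day 7 (-1.45 ± 0.13, adjusted p = 9.07e-06), with no overlap. Col17a1 and Dst, parts of the hemidesmosome, fell by 0.67 ± 0.11 and 1.40 ± 0.30, with Dst at -0.89 without uninjured replicate 4 and between -0.68 and -0.29 on its other probes. Trp63, the master factor of stratified epithelium, fell by 0.71 ± 0.17. In the hair and sebaceous list 2 of 28 rose and 3 fell, with a median change of -0.27 (1 to 3 rose and 2 to 5 fell with 1 array left out, and 2 and 5 with a median of -0.41 without uninjured replicate 4). These few calls stand against 5.44% of all features that rose and 4.95% that fell. The follicle stem cell receptors parted, Lgr5 rising by 1.0 ± 0.24 and Lgr6 falling by 0.96 ± 0.16 (above background on 1 of the 3 day 7 arrays). Among junction genes 3 of 17 rose and 3 fell, with a median change of -0.14 (2 to 3 rose and 1 to 3 fell with 1 array left out, and 3 and 2 with a median of -0.18 without uninjured replicate 4). The gap junction genes Gjb6, Gjb2 and Gja1 rose by 2.32 ± 0.18, 1.61 ± 0.20 and 0.51 ± 0.11. The tight junction genes Ocln and Cldn23 fell by 1.03 ± 0.18 and 0.76 ± 0.17. Leaving out single arrays ended the call of Trp63 without day 7 replicate 1 or 3 (highest adjusted p = 0.0676) and Lgr5 without uninjured replicate 1 or day 7 replicate 1 or 3 (highest adjusted p = 0.0677). The call also ended for Gja1 without day 7 replicate 1 (highest adjusted p = 0.0564) and Cldn23 without day 7 replicate 1 or 3 (highest adjusted p = 0.0561). The measured change was then -0.47 for Trp63 without uninjured replicate 4.

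**Figure D2:**
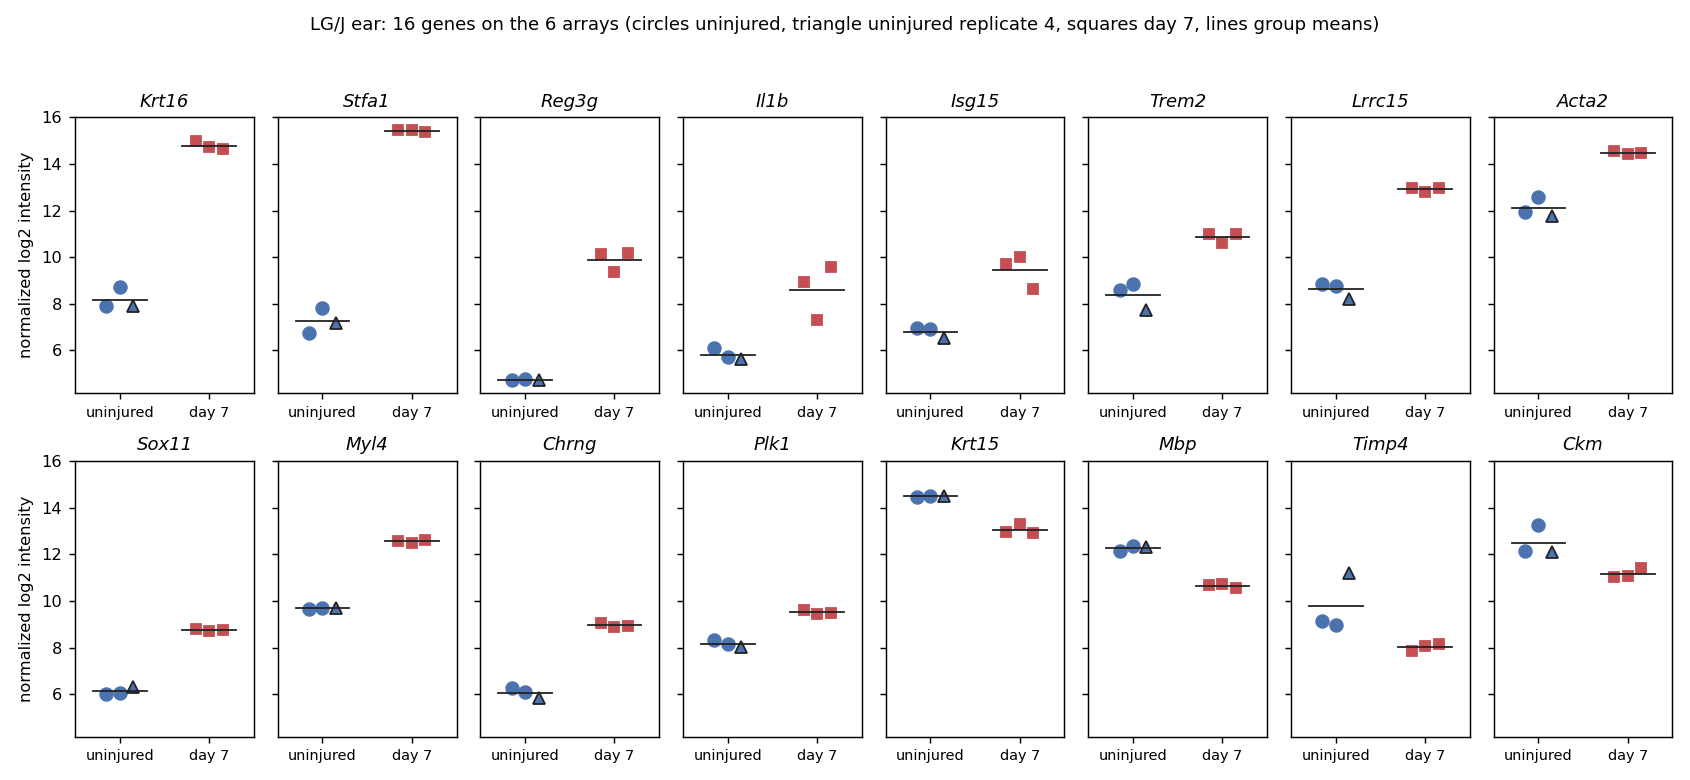
Normalized log2 intensity (vertical axis) of 16 genes on each LG/J array, with uninjured replicate 4 as a triangle and lines for the group means. Krt16 and Stfa1 lie over 4 units higher on every day 7 array, Il1b and Isg15 spread at day 7, and Timp4 is highest on uninjured replicate 4.

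Among antimicrobial and acute phase genes 9 of 23 rose, with a median change of 0.46 (7 to 11 with 1 array left out, and 8 with a median of 0.47 without uninjured replicate 4). Reg3g, a lectin that kills Gram-positive bacteria in gut and skin, was below background on all uninjured arrays, at 4.72, 4.77 and 4.71 on the uninjured arrays and 10.12, 9.38 and 10.18 at day 7, and rose at least 17.2-fold (adjusted p = 2.97e-09). Wfdc12, a protease inhibitor, read 11.02, 11.36 and 11.02 on the uninjured arrays and 14.33, 14.35 and 14.12 at day 7 (3.14 ± 0.16). Saa3, serum amyloid A made at sites of inflammation, read 6.22, 6.19 and 6.96 on the uninjured arrays and 9.88, 8.63 and 9.67 at day 7 (2.94 ± 0.35, adjusted p = 0.000125). Slpi, a leukocyte protease inhibitor, read 5.94, 6.16 and 5.80 on the uninjured arrays and 7.93, 6.44 and 7.36 at day 7 (1.28 ± 0.28, adjusted p = 0.0100). For Saa3 and Slpi day 7 replicate 2 was the lowest of the injured arrays, yet no array crossed between the groups. The iron binder Lcn2 rose by 1.66 ± 0.15 and haptoglobin, Hp, by 1.78 ± 0.35. In the S100 list 5 of 13 rose and 1 fell, with a median change of 0.42 (4 to 6 rose and 1 to 2 fell with 1 array left out, and 4 and 2 with a median of 0.30 without uninjured replicate 4). S100a8 and S100a9, whose proteins pair as calprotectin, rose by 4.87 ± 0.25 and 3.92 ± 0.27, while S100b, which glial cells and cartilage make, fell by 1.07 ± 0.16.

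Of the interleukin 1 family, 6 of 18 rose, with a median change of 0.46 (5 to 6 with 1 array left out, and 6 with a median of 0.23 without uninjured replicate 4). Il1b read 6.10, 5.72 and 5.62 on the uninjured arrays and 8.95, 7.31 and 9.57 at day 7 (above background on 1 of the 3 uninjured arrays) (2.80 ± 0.43, adjusted p = 0.00105), with day 7 replicate 2 well under the other injured arrays and still above every uninjured one. Il1f6, an epithelial interleukin 36, rose by 1.82 ± 0.20, and the alarmin Il33 rose by 1.07 ± 0.17. Il1f8, another interleukin 36, read 8.62, 8.38 and 10.52 on the uninjured arrays and 10.11, 10.09 and 9.75 at day 7 and was not called (0.81 ± 0.41, adjusted p = 0.254). Without uninjured replicate 4 its change was 1.49 (adjusted p = 0.000800). The receptor antagonist Il1rn changed by 0.04 ± 0.24, with overlap. In the interleukin 6 and TNF list 9 of 29 rose, with a median change of 0.47 (8 to 11 with 1 array left out, and 8 with a median of 0.34 without uninjured replicate 4). Il11 read 6.70, 7.03 and 6.27 on the uninjured arrays and 8.24, 9.14 and 8.98 at day 7 (2.12 ± 0.23). Il19 was below background before injury and rose at least 3.43-fold (adjusted p = 1.05e-05). Socs3, the feedback inhibitor of this signal, rose by 1.24 ± 0.17, and the cytokine Osm by 1.30 ± 0.24 (above background on 2 of the 3 uninjured arrays), while Stat3 itself changed by 0.40 ± 0.16 and was not called.

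Of the list of monocyte-drawing and other CC chemokines and their receptors 12 of 24 rose, with a median change of 0.65 (11 to 12 with 1 array left out, and 11 with a median of 0.48 without uninjured replicate 4). Ccl8 read 11.09, 11.13 and 10.41 on the uninjured arrays and 13.61, 13.25 and 13.90 at day 7 (2.71 ± 0.22, adjusted p = 3.73e-06). Ccl12 read 8.69, 8.78 and 8.10 on the uninjured arrays and 10.67, 10.66 and 10.66 at day 7 (2.14 ± 0.20). Ccl4 read 5.76, 6.13 and 5.31 on the uninjured arrays and 9.40, 7.96 and 10.10 at day 7 (above background on 1 of the 3 uninjured arrays) (3.42 ± 0.44), with its second probe at 1.57. Ccl3 rose by 1.85 ± 0.33 (above background on 2 of the 3 uninjured arrays) and Ccl5 by 2.48 ± 0.41 (above background on 2 of the 3 uninjured arrays). The day 7 arrays of Ccl8 and Ccl12 lay close together, and those of Ccl4 spread over 2 units with replicate 2 lowest. Of 4 neutrophil-drawing chemokines, Cxcl1 was called (1.41 ± 0.32, adjusted p = 0.0131), reading 6.90, 6.87 and 6.98 on the uninjured arrays and 8.74, 7.46 and 8.78 at day 7. Ccl9 rose by 1.68 ± 0.34 and Ccl17 by 1.02 ± 0.30. Calls that ended with 1 array left out were those of Cxcl1 without day 7 replicate 1 or 3 (highest adjusted p = 0.0703) and Ccl17 without uninjured replicate 4 or day 7 replicate 1, 2 or 3 (highest adjusted p = 0.162). The change became 1.11 for Ccl9 without uninjured replicate 4 and 0.62 for Ccl17 without uninjured replicate 4.

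Of the neutrophil genes 12 of 23 rose and 1 fell, with a median change of 0.94 (9 to 12 rose and 0 to 3 fell with 1 array left out, and 11 and 3 with a median of 0.61 without uninjured replicate 4). Clec4d, a lectin receptor of myeloid cells, read 6.75, 6.81 and 6.19 on the uninjured arrays and 9.65, 9.07 and 9.46 at day 7 (2.81 ± 0.23, adjusted p = 3.73e-06). The formyl peptide receptor Fpr2 rose by 2.61 ± 0.33, the gelatinase Mmp9 by 1.88 ± 0.23 and the G-CSF receptor Csf3r by 1.84 ± 0.26. The granule enzyme Mpo changed by -0.42 ± 0.27 and was not called (-0.76 and called without uninjured replicate 4, adjusted p = 0.0480), and the granule peptide gene Camp fell by 0.69 ± 0.21. Several of these genes, Mmp9, Hp and Lcn2 among them, are also made by macrophages or keratinocytes, and their source was not tested. Single arrays decided the call of Camp without uninjured replicate 1 or 3 or day 7 replicate 1, 2 or 3 (highest adjusted p = 0.147). Its size depended on single arrays, and the change was -0.43 for Camp without uninjured replicate 1.

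Monocyte and macrophage genes had the largest share of called members among the immune lists, and 28 of 39 rose, with a median change of 1.06 (20 to 30 with 1 array left out, and 25 with a median of 0.75 without uninjured replicate 4). Trem2, a lipid receptor of tissue macrophages, read 8.60, 8.83 and 7.71 on the uninjured arrays and 11.01, 10.60 and 11.01 at day 7 (2.49 ± 0.23, adjusted p = 1.52e-05). The Fc receptor Fcgr4 read 7.20, 7.21 and 6.06 on the uninjured arrays and 9.59, 9.79 and 9.70 at day 7 (2.88 ± 0.45). Ms4a7 rose by 2.26 ± 0.26 and the pore protein Mpeg1 by 2.26 ± 0.29, the latter by 0.23 on its second probe. Clec4n, a fungal lectin receptor, read 9.34, 9.14 and 7.48 on the uninjured arrays and 11.12, 10.75 and 11.09 at day 7 (2.33 ± 0.35), and without uninjured replicate 4 its change was 1.75 (adjusted p = 1.55e-05). For Trem2, Fcgr4 and Clec4n every day 7 array lay above every uninjured array, of which replicate 4 was the lowest. Gpnmb, Lgals3 and Apoe, which other skin cells also make, changed by -0.01, -0.03 and -0.28 and were not called. Of genes tied to alternative activation 4 of 11 rose and 1 fell, with a median change of 0.46 (3 to 4 rose and 0 to 2 fell with 1 array left out, and 3 and 2 with a median of 0.43 without uninjured replicate 4). Chil1, a chitinase-like protein, read 11.98, 12.20 and 12.47 on the uninjured arrays and 14.44, 14.52 and 14.49 at day 7 (2.27 ± 0.14), Arg1 rose by 2.10 ± 0.18, and Retnla fell by 1.38 ± 0.38. Not all of these calls held with 1 array left out: the call ended for Retnla without uninjured replicate 1 or 3 or day 7 replicate 1, 2 or 3 (highest adjusted p = 0.114).

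The level of the macrophage list on uninjured replicate 4 was 0.84 below the mean of the other 2 uninjured arrays. The same difference was -1.02 for MHC class II, -0.58 for neutrophil genes, -0.56 for mast cell genes and -0.55 for endothelial genes, and 0.59 for the wound-edge keratins. Without that array the macrophage median fell from 1.06 to 0.75, the neutrophil median from 0.94 to 0.61 and the CC chemokine and receptor median from 0.65 to 0.48. These medians stood against -0.00 over all features with it and -0.02 without it. The clearest single cases were Cd3d, C1qb and Clec4a1. The T cell receptor chain Cd3d read 7.54, 8.05 and 5.98 on the uninjured arrays and 9.05, 9.03 and 8.64 at day 7. The complement chain C1qb read 10.50, 11.02 and 9.08 on the uninjured arrays and 11.89, 11.78 and 11.94 at day 7. The lectin Clec4a1 read 9.51, 9.51 and 7.32 on the uninjured arrays and 10.38, 10.05 and 10.51 at day 7. In all 3 uninjured replicate 4 was the lowest of 6 arrays by more than 1 unit. Their changes were 1.72 ± 0.38, 1.67 ± 0.34 and 1.53 ± 0.43 with it and 1.11, 1.12 and 0.81 without it. Clec4a1 lost its call in the refits without day 7 replicate 1, 2 or 3 (highest adjusted p = 0.114).

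**Figure D3:**
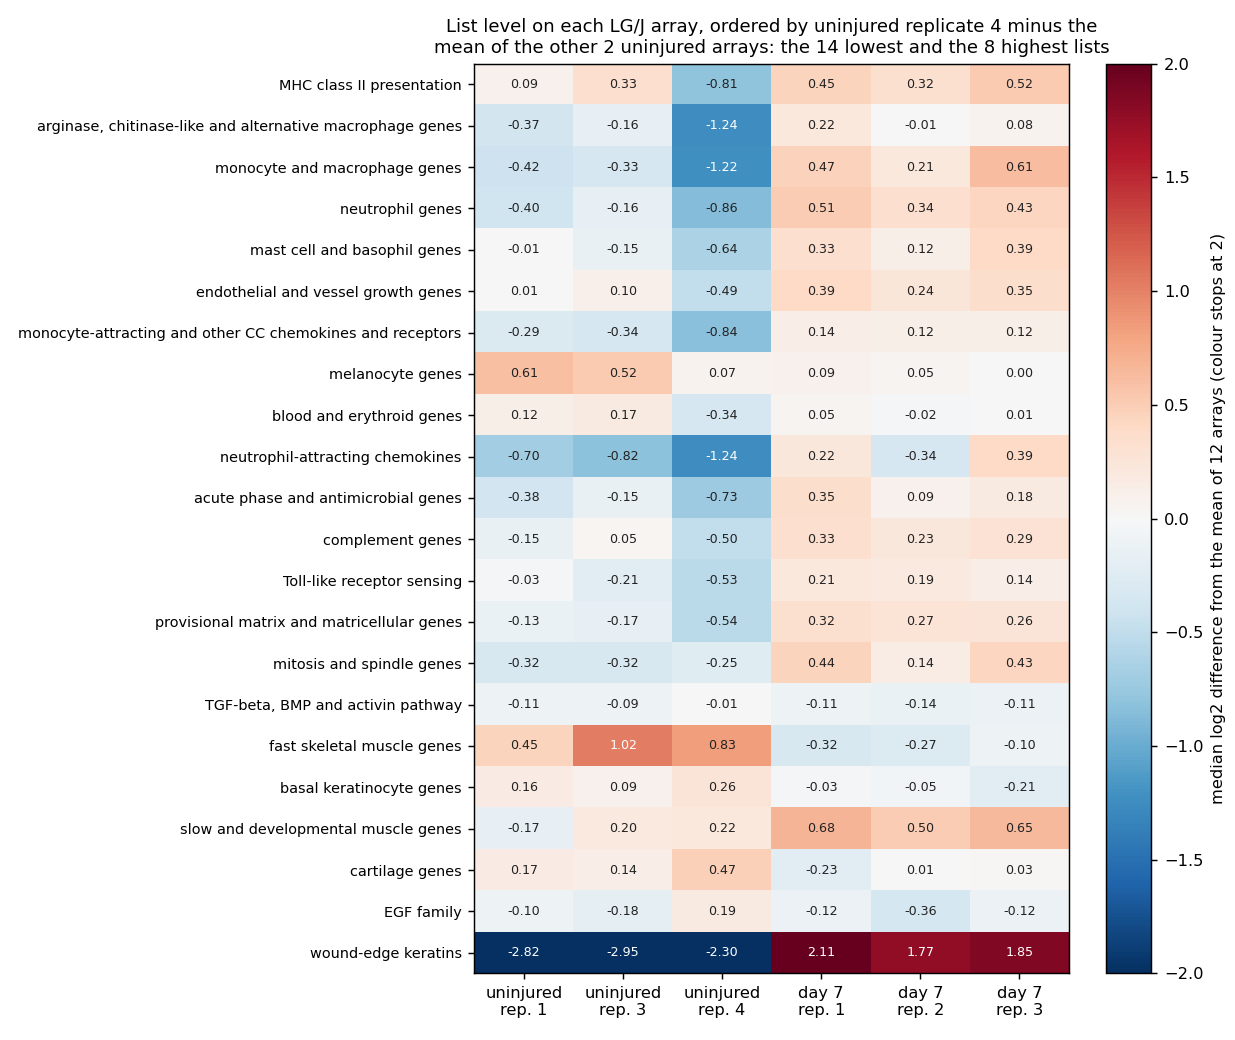
Median log2 difference of each list's genes from their mean over the 12 arrays, for the 6 LG/J arrays (columns), with rows ordered by uninjured replicate 4 minus the mean of the other 2 uninjured arrays. The 14 lists lowest on that array are shown above the 8 highest, and MHC class II and macrophage lists stand 1.02 and 0.84 lower on it.

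Complement, antigen presentation, lymphocyte and Toll-like receptor lists had medians between 0.21 and 0.78, and without uninjured replicate 4 fewer members rose in all but the B cell list. Among complement genes 5 of 18 rose and 1 fell, with a median change of 0.28 (3 to 7 rose and 0 to 1 fell with 1 array left out, with 3 rises without day 7 replicate 1 and 3 rises without day 7 replicate 3, and 4 and 0 with a median of 0.22 without uninjured replicate 4). For MHC class I 10 of 20 rose, with a median change of 0.78 (5 to 10 with 1 array left out, with 6 without day 7 replicate 2 and 5 without day 7 replicate 3, and 8 with a median of 0.62 without uninjured replicate 4). The largest of these rises were the immunoproteasome subunits Psmb8 (1.42 ± 0.28), Psmb9 (1.28 ± 0.24) and Psmb10 (1.17 ± 0.22). For MHC class II 4 of 12 rose, with a median change of 0.57 (2 to 6 with 1 array left out, with 2 without day 7 replicate 1 and 2 without day 7 replicate 3, and 3 with a median of 0.22 without uninjured replicate 4), and the class II chain H2-Ea and the invariant chain Cd74 changed by 0.31 and 0.26 with overlap. Of T cell and natural killer genes 10 of 28 rose, with a median change of 0.49 (4 to 10 with 1 array left out, with 4 without day 7 replicate 1, 6 without day 7 replicate 2 and 5 without day 7 replicate 3, and 7 with a median of 0.35 without uninjured replicate 4). Cd6, a T cell surface receptor, was below background before injury and read 5.62, 5.66 and 4.86 on the uninjured arrays and 7.94, 7.90 and 7.72 at day 7, a rise of at least 4.17-fold (adjusted p = 2.10e-06). The checkpoint receptor Ctla4 rose by 1.10 ± 0.23 (above background on 1 of the 3 uninjured arrays) and Cd2 by 1.04 ± 0.19 (above background on 2 of the 3 uninjured arrays). Of B cell genes 4 of 9 rose, with a median change of 0.73 (4 to 5 with 1 array left out, and 4 with a median of 0.39 without uninjured replicate 4). Of Toll-like receptor genes 8 of 20 rose, with a median change of 0.31 (6 to 9 with 1 array left out, and 7 with a median of 0.16 without uninjured replicate 4). Tlr13, a sensor of bacterial RNA, rose by 1.74 ± 0.20. Among Langerhans and dendritic cell genes 5 of 19 rose and 1 fell, with a median change of 0.21 (2 to 6 rose and 0 to 2 fell with 1 array left out, with 2 rises without day 7 replicate 1 and 3 rises without day 7 replicate 3, and 4 and 2 with a median of 0.17 without uninjured replicate 4). Cd207, the langerin of Langerhans cells, was the member that fell (-0.58 ± 0.13, adjusted p = 0.0125). With 1 array left out, the call ended for Cd207 without day 7 replicate 1 (highest adjusted p = 0.0692).

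Of mast cell and basophil genes 5 of 16 rose, with a median change of 0.61 (5 to 7 with 1 array left out, and 5 with a median of 0.31 without uninjured replicate 4). Mcpt8, a protease of basophils, was below background on the uninjured arrays and read 5.28, 4.61 and 4.62 on the uninjured arrays and 7.52, 6.89 and 7.82 at day 7, a rise of at least 3.07-fold (adjusted p = 2.34e-05). Fcer1a, the IgE receptor chain, read 8.25, 8.24 and 8.15 on the uninjured arrays and 9.94, 9.73 and 10.05 at day 7 (1.69 ± 0.15). The day 7 arrays of both lay above every uninjured array. The mast cell proteases Tpsab1 and Cma1 rose by 1.48 ± 0.29 and 1.24 ± 0.25. Cpa3 and Cma2, of the same list, changed by 0.71 ± 0.22 and 0.54 ± 0.32 and were not called.

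Interferon response genes rose with a wide spread among the injured arrays: 19 of 44 rose, with a median change of 0.83 (9 to 17 with 1 array left out, with 12 without day 7 replicate 1 and 9 without day 7 replicate 2, and 11 with a median of 0.76 without uninjured replicate 4). Isg15, a ubiquitin-like protein, read 6.98, 6.91 and 6.52 on the uninjured arrays and 9.71, 10 and 8.63 at day 7 (2.64 ± 0.44, adjusted p = 0.00181). Oas1g, a sensor of double-stranded RNA, read 6.98, 7.31 and 6.56 on the uninjured arrays and 10.28, 10.74 and 9.74 at day 7 (3.31 ± 0.45). Cxcl9, a chemokine induced by interferon gamma, read 6.20, 7.60 and 5.86 on the uninjured arrays and 9.52, 10.83 and 9.76 at day 7 (3.48 ± 0.85, adjusted p = 0.0179). Day 7 replicate 3 was lowest of the injured arrays for Isg15 and Oas1g, day 7 replicate 2 was highest for all 3, and no gene overlapped between groups. Usp18, Irf7 and Oasl2 rose by 2.37 ± 0.58, 2.0 ± 0.54 and 2.56 ± 0.51, and the other probes of Oasl2 changed by 0.42 and 0.97 and of Usp18 by 0.35. Without uninjured replicate 4 the changes of Cxcl9, Usp18 and Irf7 were 3.14, 1.98 and 1.63 (adjusted p = 0.0510, adjusted p = 0.0592 and adjusted p = 0.0931). Irgm1 and Ifi27l2a changed by 0.09 and 0.05 and were not called, and the other probes of Irgm1 changed by 1.29 and -0.12. Leaving out single arrays ended the call of Cxcl9 without uninjured replicate 1 or 4 or day 7 replicate 2 (highest adjusted p = 0.0780) and Usp18 without uninjured replicate 4 or day 7 replicate 1 or 2 (highest adjusted p = 0.0777). Further calls that ended were Irf7 without uninjured replicate 4 or day 7 replicate 1, 2 or 3 (highest adjusted p = 0.108).

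Promoters of this list are shown because many members carry a pair of GAAA strings with 2 bases between them, the core of the interferon-stimulated response element, searched on both strands. In the 250 bases before the start it was present in 17 of 38 windows of the list (44.7%) and 2.98% of all windows. It was present in 5 of 17 windows of the members that rose (29.4%) and in 12 of 21 of those not called (57.1%), so the share was lower among the genes that rose. The windows of Oasl2, Irf7, Cxcl9 and Irf8 held no match, and Usp18 had no window. Capitals mark the string, overlapping copies are run together, and the strand is the gene's.
Isg15 (chr4:156200847-156200926, minus strand, strings 78, 72 and 66 bases before the start): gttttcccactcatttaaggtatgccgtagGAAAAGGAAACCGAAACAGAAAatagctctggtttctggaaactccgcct
Oas1g (chr5:120887614-120887693, minus strand, strings 18 and 12 bases before the start): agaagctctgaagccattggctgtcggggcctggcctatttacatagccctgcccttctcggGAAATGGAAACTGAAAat
Gbp2 (chr3:142620574-142620653, plus strand, string 59 bases before the start): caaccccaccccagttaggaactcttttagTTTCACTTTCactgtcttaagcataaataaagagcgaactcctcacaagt
Igtp (chr11:58199476-58199555, plus strand, string 34 bases before the start): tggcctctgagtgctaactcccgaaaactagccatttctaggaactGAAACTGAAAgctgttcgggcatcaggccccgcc
Irgm2 (chr11:58214883-58214962, plus strand, string 64 bases before the start): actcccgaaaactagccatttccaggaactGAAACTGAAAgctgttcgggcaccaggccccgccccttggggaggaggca

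Genes of dividing cells rose: of the mitosis and spindle list 26 of 44 rose, with a median change of 0.65 (17 to 26 with 1 array left out, with 17 without day 7 replicate 1 and 17 without day 7 replicate 3, and 26 with a median of 0.69 without uninjured replicate 4). Plk1, the polo kinase that drives mitotic entry, read 8.31, 8.17 and 8.04 on the uninjured arrays and 9.60, 9.44 and 9.49 at day 7 (1.33 ± 0.14, adjusted p = 3.50e-05). Birc5, survivin of the chromosomal passenger complex, read 8.69, 8.85 and 8.88 on the uninjured arrays and 10.22, 9.88 and 10.16 at day 7 (1.29 ± 0.14). The day 7 arrays of each lay close together and above all uninjured arrays. Aurka, Cdca8 and Kif22 rose by 1.05 ± 0.16, 1.02 ± 0.16 and 1.0 ± 0.17. Of the replication genes 14 of 42 rose, with a median change of 0.37 (10 to 14 with 1 array left out, and 11 with a median of 0.39 without uninjured replicate 4). The thymidine kinase Tk1 rose by 1.09 ± 0.14 and the helicase subunit Mcm5 by 0.95 ± 0.15. Of the CDK inhibitors and p53 targets 1 of 27 rose and 1 fell, with a median change of -0.09 (1 to 2 rose and 1 to 2 fell with 1 array left out, and 1 and 2 with a median of -0.12 without uninjured replicate 4). Both counts were below the 5.44% and 4.95% of all features. The rise was that of Gadd45g, a growth arrest gene (1.08 ± 0.15), and the fall that of cyclin Ccnd2 (-0.72 ± 0.15). The string CCAAT, bound by the NF-Y complex, was in 72.5% of the mitosis windows against 33.8% of all windows, at 68.2% in members that rose and 77.8% in those not called. In the replication windows it was in 57.1%, at 40% in members that rose and 66.7% in those not called. CCAAT too was 1 of the 14 strings searched.

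**Figure D4:**
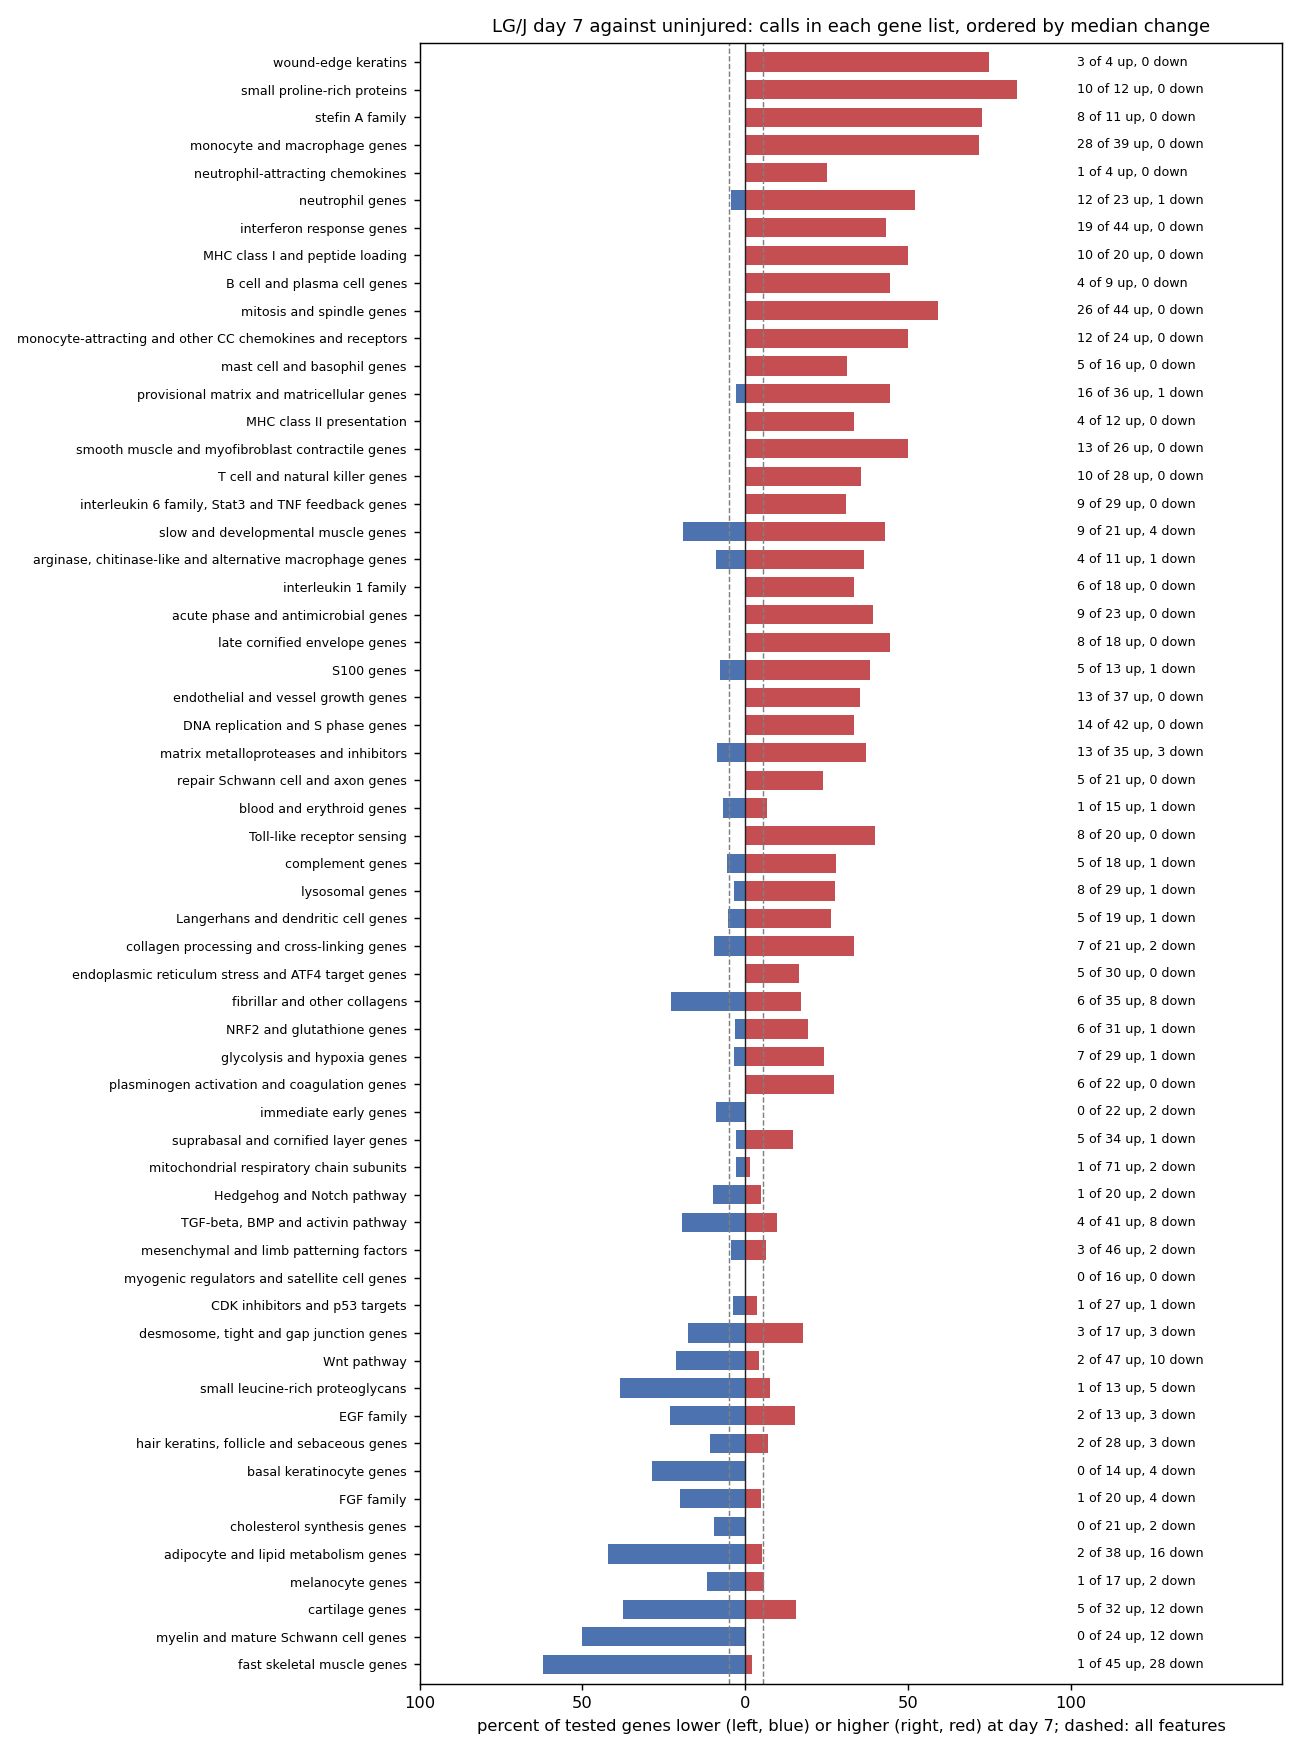
Percent of each list's tested genes that were called higher (right) or lower (left) at day 7 in LG/J, with lists ordered by their median change and dashed lines at the 5.44% and 4.95% of all features. Wound-edge keratins, proline-rich, stefin A and macrophage genes have the highest medians, and fast muscle, myelin, cartilage and pigment cell genes lowest in that order.

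Of the provisional matrix and matricellular genes 16 of 36 rose and 1 fell, with a median change of 0.60 (15 to 17 rose and 1 to 3 fell with 1 array left out, and 16 and 3 with a median of 0.44 without uninjured replicate 4). Lrrc15, a membrane protein of activated fibroblasts, read 8.87, 8.77 and 8.22 on the uninjured arrays and 12.97, 12.79 and 12.96 at day 7 (4.29 ± 0.21, adjusted p = 2.05e-08). Tnn, tenascin W, read 5.33, 5.51 and 5.87 on the uninjured arrays and 9.51, 9.32 and 9.57 at day 7 (above background on 1 of the 3 uninjured arrays) (3.90 ± 0.25). Both groups were tight and far apart. Ccn4 and Ccn5, secreted Wnt-induced proteins, rose by 2.45 ± 0.21 and 2.03 ± 0.23, and the second probe of Ccn4 changed by -0.10. Fbln2, an elastic fibre linker, rose by 2.01 ± 0.17, with its other probes at -0.02 and 1.83. Tnc rose by 2.75 ± 0.17 on its brightest probe, and its other probes changed by 0.13, 0.17, 0.23, 2.80, 1.05 and 0.51. Sparcl1, an anti-adhesive relative of Sparc, fell by 1.07 ± 0.16.

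Collagens did not move as a class. Of these 6 of 35 rose and 8 fell, with a median change of 0.16 (5 to 6 rose and 7 to 8 fell with 1 array left out, and 6 and 8 with a median of -0.01 without uninjured replicate 4). Col18a1 of vessel and epithelial basement membranes rose by 1.38 ± 0.17, Col5a1 by 1.11 ± 0.20 and Col9a3 by 1.56 ± 0.17 (above background on 2 of the 3 uninjured arrays). Col8a1, Col4a5, Col4a6, Col22a1 and Col9a1 fell by 0.91 ± 0.17, 1.04 ± 0.15, 1.08 ± 0.21 (above background on 2 of the 3 day 7 arrays), 1.20 ± 0.25 and 1.22 ± 0.26. Col1a1, the main chain of dermal collagen, read 13.80, 13.93 and 13.12 on the uninjured arrays and 14.12, 13.88 and 14 at day 7, with overlap (0.38 ± 0.28, adjusted p = 0.441). Uninjured replicate 4 was the lowest of these arrays, and the size of that change depended on it. Of the enzymes that fold and cross-link collagen 7 of 21 rose and 2 fell, with a median change of 0.19 (5 to 8 rose and 2 to 3 fell with 1 array left out, and 7 and 3 with a median of 0.28 without uninjured replicate 4). Loxl1, a lysyl oxidase, rose by 1.17 ± 0.18 and Pcolce2, a procollagen protease enhancer, fell by 1.15 ± 0.15. Small leucine-rich proteoglycans, which space collagen fibrils in settled matrix, were more often lower, and 1 of 13 rose and 5 fell, with a median change of -0.20 (1 to 2 rose and 2 to 5 fell with 1 array left out, with 2 falls without uninjured replicate 1, 2 falls without uninjured replicate 3, 2 falls without day 7 replicate 1, 3 falls without day 7 replicate 2 and 3 falls without day 7 replicate 3, and 2 and 5 with a median of -0.57 without uninjured replicate 4). Omd, osteomodulin, read 10.90, 10.60 and 11.94 on the uninjured arrays and 9.36, 9.69 and 9.69 at day 7 (-1.57 ± 0.28), high on uninjured replicate 4 and at -1.17 without it.

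Of the matrix proteases and their inhibitors 13 of 35 rose and 3 fell, with a median change of 0.36 (11 to 15 rose and 2 to 4 fell with 1 array left out, and 15 and 4 with a median of 0.33 without uninjured replicate 4). Timp1 read 9.69, 10.01 and 9.88 on the uninjured arrays and 13.30, 12.88 and 13.09 at day 7 (3.23 ± 0.15, adjusted p = 1.21e-08). Timp4 read 9.13, 8.97 and 11.19 on the uninjured arrays and 7.87, 8.07 and 8.13 at day 7 (-1.74 ± 0.42, adjusted p = 0.0175), and without uninjured replicate 4 it changed by -1.03 (adjusted p = 0.00328). The inhibitors went opposite ways, with Timp3 (-0.78 ± 0.13) and the membrane inhibitor Reck (-1.31 ± 0.28) also lower and Timp2 not called (-0.38 ± 0.14, but -0.51 and called without uninjured replicate 4, adjusted p = 0.0283). Mmp13, a collagenase, rose by 3.65 ± 0.30 (above background on 2 of the 3 uninjured arrays) on its brightest probe, while its other probes gave 0.16 and -0.04. Adamts4, an aggrecan-cleaving protease, read 7.28, 7.06 and 6.84 on the uninjured arrays and 10.36, 10.12 and 10.13 at day 7 (3.14 ± 0.18). Adam12 was below background before injury and rose at least 3.34-fold. In the plasminogen and clotting list 6 of 22 rose, with a median change of 0.11 (6 with 1 array left out, and 6 with a median of 0.19 without uninjured replicate 4). The activator Plat rose by 1.77 ± 0.16 and the urokinase receptor Plaur by 1.56 ± 0.20. Calls that ended with 1 array left out were those of Timp4 without day 7 replicate 1 or 2 (highest adjusted p = 0.0701).

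Of the smooth muscle and myofibroblast genes 13 of 26 rose, with a median change of 0.53 (10 to 13 with 1 array left out, and 13 with a median of 0.51 without uninjured replicate 4). Acta2, smooth muscle actin, read 11.93, 12.60 and 11.75 on the uninjured arrays and 14.56, 14.45 and 14.47 at day 7 (2.40 ± 0.21, adjusted p = 6.68e-06), and its other probes changed by 1.98, 2.45 and 2.60. Actg2 rose by 2.32 ± 0.31, Tagln2 by 1.51 ± 0.16 and the myosin light chain Myl9 by 1.48 ± 0.22. Of the endothelial and vessel growth genes 13 of 37 rose, with a median change of 0.41 (8 to 14 with 1 array left out, with 8 without day 7 replicate 3, and 10 with a median of 0.24 without uninjured replicate 4). Plvap, of the diaphragms of small vessels, read 10.48, 10.73 and 9.98 on the uninjured arrays and 11.74, 11.59 and 11.68 at day 7 (1.27 ± 0.22). Pdpn, found on lymphatic vessels, keratinocytes and activated fibroblasts, rose by 1.44 ± 0.20. Pecam1 rose by 0.57 ± 0.14 and Cdh5 was not called (0.64 ± 0.20, adjusted p = 0.0571). Single arrays decided the call of Pecam1 without uninjured replicate 1 or day 7 replicate 1 or 3 (highest adjusted p = 0.0877).

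The growth factor lists held both rises and falls, and their counts stand against 5.44% of all features that rose and 4.95% that fell. For the EGF family 2 of 13 rose and 3 fell, with a median change of -0.23 (1 to 2 rose and 1 to 3 fell with 1 array left out, and 2 and 3 with a median of -0.25 without uninjured replicate 4). Nrg1, neuregulin 1, was below background before injury and at least 2.74-fold higher at day 7, and Hbegf rose by 0.92 ± 0.20. The ligands Btc and Egf fell by 0.96 ± 0.26 and 0.90 ± 0.21 (above background on 2 of the 3 day 7 arrays). For the FGF family 1 of 20 rose and 4 fell, with a median change of -0.29 (1 to 2 rose and 4 to 6 fell with 1 array left out, and 2 and 6 with a median of -0.18 without uninjured replicate 4). Fgf10, a mesenchymal signal to epithelium, read 8.09, 7.82 and 7.18 on the uninjured arrays and 6.82, 6.32 and 6.63 at day 7 (-1.11 ± 0.21), and its receptor Fgfr2 fell by 1.03 ± 0.16. For the Wnt pathway 2 of 47 rose and 10 fell, with a median change of -0.19 (0 to 3 rose and 3 to 13 fell with 1 array left out, with 3 falls without day 7 replicate 1 and 6 falls without day 7 replicate 3, and 2 and 13 with a median of -0.27 without uninjured replicate 4). Of its secreted inhibitors, Sfrp2 rose by 1.26 ± 0.28, while Frzb and Wif1 fell by 1.17 ± 0.16 and 0.98 ± 0.21. For TGF-beta, BMP and activin genes 4 of 41 rose and 8 fell, with a median change of -0.05 (3 to 5 rose and 1 to 6 fell with 1 array left out, with 5 falls without uninjured replicate 1, 1 falls without day 7 replicate 1, 2 falls without day 7 replicate 2 and 3 falls without day 7 replicate 3, and 5 and 6 with a median of -0.06 without uninjured replicate 4). The balance of rises and falls in this list turned without day 7 replicate 1 (3 rose and 1 fell), without day 7 replicate 2 (3 and 2) and with a replicate block (5 and 4). Inhba, the activin A subunit, rose by 1.51 ± 0.15, and the BMP antagonist Nog fell by 0.92 ± 0.22. Of the Hedgehog and Notch genes 1 of 20 rose and 2 fell, with a median change of -0.05 (0 to 2 rose and 0 to 4 fell with 1 array left out, and 0 and 2 with a median of -0.13 without uninjured replicate 4). The EGF and the Hedgehog and Notch balance each turned to 2 rises and 1 fall without day 7 replicate 2. Tgfb1 read 9.0, 9.41 and 7.49 on the uninjured arrays and 9.92, 9.99 and 10.02 at day 7 (1.34 ± 0.35), lowest on uninjured replicate 4 and at 0.77 (adjusted p = 0.00866) without it. Not all of these calls held with 1 array left out: the call ended for Hbegf without day 7 replicate 3 (highest adjusted p = 0.0534) and Btc without uninjured replicate 1 or 4 or day 7 replicate 1, 2 or 3 (highest adjusted p = 0.108). Refits likewise ended that of Egf without day 7 replicate 2 (highest adjusted p = 0.0584) and Sfrp2 without day 7 replicate 1 (highest adjusted p = 0.0554). The same was so for Wif1 without day 7 replicate 1 (highest adjusted p = 0.0501) and Nog without day 7 replicate 1 or 2 (highest adjusted p = 0.0615). Also ended were those of Tgfb1 without day 7 replicate 1, 2 or 3 (highest adjusted p = 0.0751).

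Of the mesenchymal and limb patterning factors 3 of 46 rose and 2 fell, with a median change of -0.05 (1 to 5 rose and 0 to 3 fell with 1 array left out, and 4 and 3 with a median of -0.11 without uninjured replicate 4). Sox11, a factor of embryonic mesenchyme and nerve progenitors, read 6.02, 6.05 and 6.32 on the uninjured arrays and 8.80, 8.72 and 8.75 at day 7 (2.63 ± 0.14, adjusted p = 3.55e-08), and its second probe changed by 1.92. It was the sole change of that list over 1 log2 unit among its 5 calls, with no overlap between groups, and the other calls were Sox4, Igf1, Meis1 and Igf2. With 1 array left out, Sox4 kept its call in 4 of 6 fits (its change was 0.51 without uninjured replicate 4), Igf1 in 3 and Meis1 and Igf2 in 2 each. The counts of this list were near the 5.44% and 4.95% of all features that rose and fell, and with median scaling 1 rose and 2 fell. Msx1, a factor of limb regeneration in amphibians, changed by -0.49 ± 0.18 and was not called, and was at -0.62 (adjusted p = 0.0474) without uninjured replicate 4. Of the immediate early genes 2 of 22 fell, with a median change of 0.07 (0 to 2 with 1 array left out, and 0 with a median of -0.03 without uninjured replicate 4). These 2 falls stand against 4.95% of all features, and both calls ended without uninjured replicate 4. Egr1 changed by 0.06 ± 0.32 with overlapping groups, and Egr2 and Egr3 fell by 0.70 ± 0.18 and 0.54 ± 0.14. Egr2 lost its call without uninjured replicate 1 or 4 or day 7 replicate 1 or 2 (highest adjusted p = 0.0865). Egr3 lost its call without uninjured replicate 1 or 4 or day 7 replicate 1, 2 or 3 (highest adjusted p = 0.0883).

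Skeletal muscle genes split between fast and developmental forms. Of the fast muscle genes 1 of 45 rose and 28 fell, with a median change of -1.06 (1 rose and 11 to 27 fell with 1 array left out, with 14 falls without uninjured replicate 3, 14 falls without day 7 replicate 1, 11 falls without day 7 replicate 2 and 16 falls without day 7 replicate 3, and 1 and 23 with a median of -1.04 without uninjured replicate 4). Ckm, muscle creatine kinase, read 12.15, 13.27 and 12.09 on the uninjured arrays and 11.04, 11.06 and 11.40 at day 7 (-1.34 ± 0.39, adjusted p = 0.0415). Pvalb, the calcium buffer of fast fibres, read 12.95, 14.09 and 13.61 on the uninjured arrays and 11.85, 11.80 and 12.52 at day 7 (-1.50 ± 0.29). The uninjured arrays of these genes spread by about a unit, with replicate 3 highest, and still lay above the day 7 arrays. Acta1, skeletal actin, fell by 0.76 ± 0.22 and the fast myosin chain Myh4 by 1.58 ± 0.37 (above background on 2 of the 3 day 7 arrays). With 1 array left out, the call ended for Ckm without uninjured replicate 3 or day 7 replicate 1, 2 or 3 (highest adjusted p = 0.137) and Acta1 without uninjured replicate 3 or 4 or day 7 replicate 1 or 2 (highest adjusted p = 0.151). The call also ended for Myh4 without uninjured replicate 3 or day 7 replicate 2 (highest adjusted p = 0.0641).

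In the slow and developmental list 9 of 21 rose and 4 fell, with a median change of 0.47 (6 to 9 rose and 2 to 4 fell with 1 array left out, with 2 falls without uninjured replicate 3, 2 falls without day 7 replicate 1 and 2 falls without day 7 replicate 2, and 9 and 4 with a median of 0.79 without uninjured replicate 4). Myl4, the embryonic and atrial light chain, read 9.64, 9.70 and 9.69 on the uninjured arrays and 12.57, 12.48 and 12.63 at day 7 (2.88 ± 0.12, adjusted p = 3.04e-09). Chrng, the fetal acetylcholine receptor subunit that muscle re-expresses when it loses its nerve, read 6.25, 6.11 and 5.82 on the uninjured arrays and 9.07, 8.89 and 8.93 at day 7 (2.90 ± 0.15), with its second probe at 0.48. Both had tight groups that did not meet. Tnnc1 rose by 1.87 ± 0.34 and Ankrd1, a stretch-induced gene, by 1.59 ± 0.25. The slow fibre light chains went the other way, with Myl2 down by 1.78 ± 0.48 and Myl3 by 1.47 ± 0.31. Of 16 myogenic regulators and satellite cell genes, limma called none. At limma's unadjusted p under 0.05, 4 of the 16 passed, all lower at day 7. Of all 24690 features 5975 passed that limit in either direction, a like share. Leaving out single arrays ended the call of Myl2 without uninjured replicate 3 or day 7 replicate 1, 2 or 3 (highest adjusted p = 0.120).

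Of the myelin and mature Schwann cell genes 12 of 24 fell, with a median change of -0.70 (9 to 13 with 1 array left out, and 13 with a median of -0.72 without uninjured replicate 4). Mbp read 12.14, 12.35 and 12.30 on the uninjured arrays and 10.70, 10.74 and 10.54 at day 7 (-1.60 ± 0.14, adjusted p = 1.04e-05) on its brightest probe, and its other probes changed by -0.00, 0.17 and -0.24. Pllp, plasmolipin, read 7.94, 8.0 and 7.71 on the uninjured arrays and 6.59, 6.31 and 6.28 at day 7 (-1.49 ± 0.14), and Ncmap, a peripheral myelin protein, fell by 1.25 ± 0.15. Every uninjured array of these genes lay above every day 7 array. Of the genes of repair Schwann cells and growing axons 5 of 21 rose, with a median change of 0.33 (4 to 6 with 1 array left out, and 4 with a median of 0.19 without uninjured replicate 4). They include the neurotrophic factor Artn (0.93 ± 0.16) and the growth cone gene Gap43 (0.68 ± 0.20). Calls that ended with 1 array left out were those of Gap43 without uninjured replicate 1 or 4 or day 7 replicate 1 or 3 (highest adjusted p = 0.139).

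Of the fat genes 2 of 38 rose and 16 fell, with a median change of -0.48 (2 rose and 8 to 16 fell with 1 array left out, with 10 falls without uninjured replicate 3, 8 falls without day 7 replicate 1, 9 falls without day 7 replicate 2 and 8 falls without day 7 replicate 3, and 2 and 16 with a median of -0.56 without uninjured replicate 4). Adipoq, adiponectin, read 12.13, 12.45 and 12.42 on the uninjured arrays and 11.39, 11.38 and 11.62 at day 7 (-0.87 ± 0.23, adjusted p = 0.0272), and without uninjured replicate 4 it changed by -0.82 (adjusted p = 0.0571). Plin4, a lipid droplet coat protein, read 12.46, 12.62 and 12.52 on the uninjured arrays and 11.54, 11.67 and 11.65 at day 7 (-0.91 ± 0.17). Pparg, the fat cell master factor, fell by 0.75 ± 0.17 and the glucose carrier Slc2a4, shared with muscle, by 1.07 ± 0.19. Fabp5 and Angptl4, which skin and vessels also make, rose by 1.25 ± 0.14 and 1.36 ± 0.22, and the second probe of Angptl4 changed by 0.33. Single arrays decided the call of Adipoq without uninjured replicate 3 or 4 or day 7 replicate 1, 2 or 3 (highest adjusted p = 0.0927).

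Of the cartilage genes 5 of 32 rose and 12 fell, with a median change of -0.58 (4 to 5 rose and 8 to 12 fell with 1 array left out, and 4 and 12 with a median of -0.23 without uninjured replicate 4). The factors Sox5, Sox6 and Sox9, which drive chondrocyte fate, fell by 1.22 ± 0.17, 1.24 ± 0.24 and 0.91 ± 0.18. Ucma, of the upper cartilage zone, read 8.57, 8.55 and 9.56 on the uninjured arrays and 7.48, 7.24 and 7.74 at day 7 (-1.41 ± 0.24), high on uninjured replicate 4. Col2a1 and Acan, the main collagen and proteoglycan of cartilage, changed by 0.55 ± 0.18 and -0.41 ± 0.23 and were not called. Acan read 10.44, 10.91 and 11.51 on the uninjured arrays and 10.27, 10.59 and 10.76 at day 7. The size of its change thus depended on uninjured replicate 4. Comp and Matn2 rose by 0.68 ± 0.18 and 0.89 ± 0.12. Of the pigment cell genes 1 of 17 rose and 2 fell, with a median change of -0.49 (0 to 1 rose and 0 to 9 fell with 1 array left out, and 0 and 9 with a median of -0.56 without uninjured replicate 4). Those few calls stand against 5.44% of all features that rose and 4.95% that fell. Tyrp1, an enzyme of melanin synthesis, read 12.13, 12.06 and 11.06 on the uninjured arrays and 11.08, 10.86 and 10.95 at day 7 (-0.79 ± 0.23). On Tyrp1 uninjured replicate 4 lay among the injured arrays. Not all of these calls held with 1 array left out: the call ended for Comp without uninjured replicate 1 or 4 or day 7 replicate 1, 2 or 3 (highest adjusted p = 0.0854) and Tyrp1 without uninjured replicate 1 or 3 or day 7 replicate 1, 2 or 3 (highest adjusted p = 0.132).

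Stress and metabolic lists had medians between -0.32 and 0.23. Of the glycolysis and hypoxia genes 7 of 29 rose and 1 fell, with a median change of 0.13 (3 to 7 rose and 0 to 1 fell with 1 array left out, with 3 rises without day 7 replicate 1, and 5 and 1 with a median of 0.19 without uninjured replicate 4). The carbonic anhydrase Car12 rose by 1.14 ± 0.13. Of the NRF2 and glutathione genes 6 of 31 rose and 1 fell, with a median change of 0.13 (2 to 6 rose and 1 to 2 fell with 1 array left out, with 2 rises without day 7 replicate 1 and 3 rises without day 7 replicate 3, and 6 and 2 with a median of 0.02 without uninjured replicate 4). The glutathione peroxidase Gpx2 rose by 1.64 ± 0.21 and the transferase Gsta3 fell by 1.10 ± 0.12. Of the lysosomal genes 8 of 29 rose and 1 fell, with a median change of 0.23 (4 to 10 rose and 0 fell with 1 array left out, with 4 rises without day 7 replicate 1 and 5 rises without day 7 replicate 3, and 7 and 0 with a median of 0.19 without uninjured replicate 4). The protease Lgmn rose by 1.02 ± 0.22. Of the unfolded protein response genes 5 of 30 rose, with a median change of 0.18 (2 to 5 with 1 array left out, with 3 without uninjured replicate 1, 3 without uninjured replicate 3, 3 without day 7 replicate 1, 2 without day 7 replicate 2 and 2 without day 7 replicate 3, and 5 with a median of 0.13 without uninjured replicate 4). Of the cholesterol synthesis genes 2 of 21 fell, with a median change of -0.32 (2 to 5 with 1 array left out, and 5 with a median of -0.28 without uninjured replicate 4). In the respiratory chain and blood lists the shares called were near or under the 5.44% and 4.95% of all features. Of the respiratory chain subunits 1 of 71 rose and 2 fell, with a median change of -0.04 (0 to 2 rose and 0 to 1 fell with 1 array left out, and 2 and 1 with a median of -0.02 without uninjured replicate 4). The 2 that fell, Cox7a1 (-1.34 ± 0.32) and Cox8b (-1.11 ± 0.33), are forms that muscle and brown fat use. Of the blood and erythroid genes 1 of 15 rose and 1 fell, with a median change of 0.32 (0 to 1 rose and 1 to 2 fell with 1 array left out, and 1 and 1 with a median of -0.06 without uninjured replicate 4). Globin transcripts changed by 0.47 ± 0.33 for Hba-a1 and 0.40 ± 0.24 for Hbb-bt, with overlap and with uninjured replicate 4 lowest. Cox7a1 lost its call without uninjured replicate 3 or day 7 replicate 1 or 2 (highest adjusted p = 0.0636). Cox8b lost its call without uninjured replicate 1, 3 or 4 or day 7 replicate 1, 2 or 3 (highest adjusted p = 0.127).

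Some of the largest changes lay outside every list. Spink7, an epithelial protease inhibitor, read 5.62, 5.58 and 6.08 on the uninjured arrays and 11.23, 10.97 and 10.65 at day 7 (above background on 1 of the 3 uninjured arrays) (5.19 ± 0.26, adjusted p = 2.36e-08). Reg1, a relative of Reg3g, was below background before injury and read 5.50, 5.66 and 5.63 on the uninjured arrays and 10.23, 10.12 and 10.55 at day 7, a rise of at least 22.8-fold (adjusted p = 7.23e-10). Gast, the gastrin hormone gene, was likewise below background and rose at least 5.20-fold. All 3 day 7 arrays also lay above the uninjured ones for Prss35 (3.04 ± 0.21), a protease-like gene, Ddah1 (2.83 ± 0.16), which degrades inhibitors of nitric oxide synthase, the neuropeptide Nmu (2.70 ± 0.16) and Rbp2 (2.90 ± 0.29), a retinol carrier of the gut. Among falls, Angptl7 read 13.47, 13.40 and 13.58 on the uninjured arrays and 11.76, 12.03 and 11.99 at day 7 (-1.56 ± 0.14, adjusted p = 1.19e-05). Corin, a protease of heart and hair follicle, read 12.51, 12.43 and 12.67 on the uninjured arrays and 10.81, 11.11 and 11.10 at day 7 (-1.53 ± 0.16). These falls had tight groups, and without uninjured replicate 4 they were -1.52 and -1.47. Inmt, a methyltransferase, and Cyp2e1 fell by 1.80 ± 0.28 and 1.49 ± 0.39 (above background on 2 of the 3 day 7 arrays), and by more, -2.08 and -2.05 in log2 change, without that array. With 1 array left out, the call ended for Cyp2e1 without uninjured replicate 1 or 3 or day 7 replicate 1, 2 or 3 (highest adjusted p = 0.0887). Its size depended on single arrays, and the change was -0.95 for Cyp2e1 without uninjured replicate 3.

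Several genes were called only without uninjured replicate 4. Igfbp6, a carrier of insulin-like growth factor 2, read 11.03, 11.31 and 9.43 on the uninjured arrays and 9.80, 10 and 9.87 at day 7, with a change of -0.70 ± 0.34 (adjusted p = 0.234) that became -1.28 (adjusted p = 0.000135). Cilp2, a cartilage matrix protein, went from -0.72 ± 0.32 to -1.26 (adjusted p = 8.16e-05). In both, that array lay below every injured array. Ptx3, a soluble pattern receptor, went from 0.75 ± 0.26 to 1.15 (adjusted p = 0.000897), and that array read 8.26 where the other uninjured arrays read 7.15 and 7.00. Cidec, of fat droplets, went from -0.83 ± 0.34 to -1.24 (adjusted p = 0.0161).

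The SM/J arrays show how far the LG/J changes differ from those of the poor healer, with each strain measured against its own uninjured ear. Of the 2566 LG/J calls, 1360 were also called in the same direction in SM/J. The difference between the changes was called for 105 of 24690 features (0.425%), 69 of them LG/J calls, and for 89 of the 105 also without LG/J uninjured replicate 4. That count was 124 without uninjured replicate 4, 62 and 43 without uninjured replicates 1 and 3, and 21, 26 and 36 without day 7 replicates 1, 2 and 3. It was 10 with a replicate block and 836 with estimated array weights. In the main fit, the LG/J change was the higher for 13 of the 105 features and the lower for 92. Krt16 rose by 6.61 in LG/J and 5.90 ± 0.23 in SM/J, Plk1 by 1.33 and 1.20 ± 0.14, and Lrrc15 by 4.29 and 3.43 ± 0.21. None of these differences was called (adjusted p = 0.543, adjusted p = 0.928 and adjusted p = 0.306). For the falls, Mbp changed by -1.60 in LG/J and -2.12 ± 0.14 in SM/J, and Krt15 by -1.45 and -0.96 ± 0.13, again with no call (adjusted p = 0.425 and adjusted p = 0.371).

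Among the genes named by rule, 5 differed between the strains. Mcpt8, of basophils, changed by 0.27 ± 0.25 in SM/J, where it was above background on 0 of 3 uninjured and 1 of 3 day 7 arrays. The measured changes differed by 2.30 ± 0.36 (adjusted p = 0.0201) with LG/J higher, but uninjured signals below background leave the size of that difference uncertain, and the rise in LG/J is known only as at least 3.07-fold. The other 4 rose less in LG/J. Saa3 rose by 2.94 in LG/J and 5.54 ± 0.35 in SM/J (-2.60 ± 0.49, adjusted p = 0.0411). Cd14, the coreceptor for bacterial lipopolysaccharide, rose by 1.06 and 3.15 ± 0.25 (-2.08 ± 0.35, adjusted p = 0.0251). Its LG/J call ended without day 7 replicate 1 or 3 (highest adjusted p = 0.0670). S100a7a, an antimicrobial S100 protein, was below background in the uninjured ear of both strains. Its measured changes differed by -1.52 ± 0.29 (adjusted p = 0.0411), with the size uncertain for the same reason, and its day 7 means were 6.58 in LG/J and 8.28 in SM/J. Arg1 differed by -1.26 ± 0.25 (adjusted p = 0.0490). With 1 LG/J array left out at a time, Mcpt8 kept its call in 5 of 6 fits, S100a7a in 2, Arg1 and Cd14 in 1 and Saa3 in 0. The highest adjusted p-values ran from 0.0630 to 0.133. Il1b rose by 2.80 in LG/J and 5.21 ± 0.43 in SM/J, and Tpsab1 changed by 1.48 and -0.02 ± 0.29, differences that were not called (adjusted p = 0.108 and adjusted p = 0.143).

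**Figure D5:**
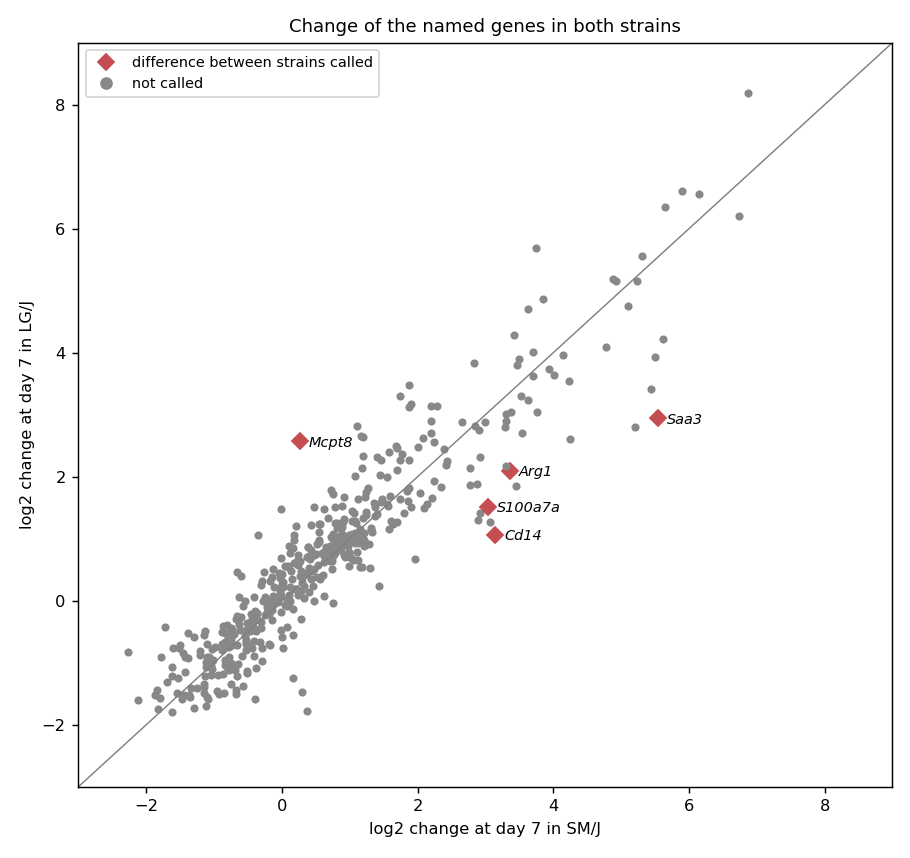
Log2 change at day 7 in SM/J (horizontal axis) and LG/J (vertical axis) of the genes named by rule, each point 1 gene, with a line of equality and diamonds where the difference between strains was called. The 5 diamonds are Mcpt8, above the line, and Saa3, Cd14, S100a7a and Arg1, below it.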

How the data were processed

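Total RNA from ear tissue (Trizol) was biotin-labelled, hybridised to Illumina bead arrays and read with streptavidin-Cy3, per the labels' protocols. BeadStudio is named in the submitters' processing notes, without a version; other steps are not given in the sources used here. The deposited values used were each array's intensity per probe, on a linear scale and with no background subtraction or scaling between arrays apparent in the values; a table of intensities that the authors had normalized between arrays served as an alternative.

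In R 4.3.3 with limma 3.58.1, the 12 arrays were background-corrected with normexp (offset 16) and quantile-normalized together, the dimmest 25% of 45281 probes by mean were left out, and the probe with the highest mean stood for a gene. Normexp was fitted to the signals alone because no detection p-values were at hand for a correction based on them. Group means of all 4 groups were fitted with lmFit and eBayes, and p-values were adjusted by the Benjamini-Hochberg method over all 24690 features. Leaving out an array repeated the fit on the normalized values of the other 11. The background limit of an array was the 95% quantile of a normal curve set around the mode of its lower signals, 5.76 to 5.83 on the log2 scale over the LG/J arrays, and it was chosen after the data were seen. The number of arrays limits the precision. On simulated data for the LG/J comparison over 33960 probes, 64 of 100 probes changed by 1 log2 unit and 95 of 100 changed by 2 were called, with 10 false calls. No other probes were changed there, the noise was normal and independent between arrays, and no array was set apart. In the data 10.4% of features were called, so the shares found by simulation may not hold for them.

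Probe names came from GEO's platform annotation, with 23604 probes matched to 1 gene, 12 to several and 21665 to none. The 59 gene lists and the comparison itself were chosen with earlier results of these data known, and lists are described by counts and medians with no set test. Genes were named by rule: the largest called changes without overlap, up to 6 called members of each list, called members against its direction, up to 2 uncalled members with the highest signal, the 10 largest called rises and falls outside lists, those most moved by uninjured replicate 4, and the tissue markers. Promoters are RefSeq windows of GRCm38.p6.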

Additional observations from a re-analysis of the deposited data

Results flagged for a closer look

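For 5 of the genes named by rule the change at day 7 differed between the strains by limma's test of the difference, given here as the LG/J change minus the SM/J change in log2 units. Mcpt8, a basophil protease, differed by 2.30 in measured signal, with both uninjured groups below background, and its call ended without LG/J day 7 replicate 1 (adjusted p = 0.0630). Saa3, an acute phase protein, differed by -2.60, and no refit with 1 LG/J array left out kept the call (adjusted p = 0.0572 to 0.0950). Cd14, the lipopolysaccharide coreceptor, differed by -2.08 and kept its call in 1 of 6 refits, that without uninjured replicate 4 (adjusted p = 0.00420 to 0.0869 over the 6). S100a7a, an S100 protein of keratinocytes, differed by -1.52 in measured signal, also with both uninjured groups below background, and kept its call in 2 of 6 (adjusted p = 0.0107 to 0.107). Arg1, arginase 1, differed by -1.26 and kept its call in 1 of 6 (adjusted p = 0.0489 to 0.133). With 3 arrays in each group, no group was large enough for a check of single outlying arrays beyond the distances given for uninjured replicate 4.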

How the results depend on the processing

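No named gene changed direction while called under the 11 processing settings and 6 left-out arrays. Rises did not outnumber falls in every setting: falls were more with median scaling, array weights, no background correction and the deposited table, and without uninjured replicate 4 (1286 rises, 1418 falls). Of 59 lists, the median changed sign under at least 1 of these 17 settings for 6, none with a median beyond 0.32 in size, and the balance of rises and falls turned for 7. The 2566 calls became 1595 when the 6 LG/J arrays were fitted alone and 4344 with estimated array weights, and 1412 to 2704 with 1 array left out. The 1343 rises became 797 with median scaling and 873 with the LG/J arrays alone, and 849 to 1411 with 1 array left out. The 1223 falls became 1852 with median scaling, 722 with the LG/J arrays alone and 2408 with array weights, and 563 to 1418 with 1 array left out. The 105 differences between strains became 836 with array weights and 10 with a replicate block, and 21 to 124 with 1 array left out. The labels do not say what the replicate numbers mark. With group means taken out, arrays that share a number correlated at -0.093 to 0.186 over 10 pairs. Arrays with different numbers were not compared, so whether the numbers pair the arrays was not tested. The replicate block gave 2185 calls. Of the 331 named genes that were called, 304 kept the call without uninjured replicate 4 and 23 others gained one, 251 kept it without day 7 replicate 1, 254 with the LG/J arrays alone, 283 with median scaling, 288 with the mean over a gene's probes and 331 without background correction, and 241 kept it in all 6 left-out fits. The cause of these moves was not tested. The LG/J fit and each left-out fit held fewer arrays, and their arrays were normalized anew. Fold changes are bounds for genes below background on all arrays of a group, and the labels do not say whether the arrays hold separate animals.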
